A study of Drosophila melanogaster with 15 samples.

Results

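The genes described here are 10 nuclear genes that encode subunits of the mitochondrial respiratory chain and the ATP synthase. They are blw, ATPsyn-beta and Oscp of the ATP synthase (complex V), cype, levy, CoVa and CoVb of cytochrome c oxidase (complex IV), RFeSP of the cytochrome bc1 complex (complex III), and ND75 and ND42 of NADH dehydrogenase (complex I). They were found by name among the 15682 gene symbols of the count files. All 10 passed the filter on low counts, with 1107 to 24761 reads per library.

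In oxidative phosphorylation, complexes I, III and IV pass electrons to oxygen and pump protons across the inner mitochondrial membrane, and the ATP synthase uses the proton gradient to make ATP. Most subunits are encoded in the nucleus and imported, while a few core subunits are encoded by mitochondrial DNA, so the complexes are built from products of both genomes. Larval body wall muscles of Drosophila are large fibers used for crawling, and each muscle is a single fiber that grows during larval life.

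RNA was measured in filleted Drosophila melanogaster larvae, which are mostly body wall muscle with its epidermis, in 15 libraries of 5 genotypes with 3 biological replicates each, which the study's methods describe as different larvae. The study asked how the transcription factor Deaf1 and the kinase Gsk3 change gene expression in growing muscle. All 5 genotypes carried Mef2-Gal4, a driver that is strongest in skeletal muscle but is also active in visceral muscle and in some mushroom body neurons of the brain. Mef2>Deaf1RNAi expressed a hairpin against Deaf1 and its reference was Mef2>whiteRNAi, with a hairpin against w, an eye pigment gene. Mef2>Deaf1 expressed a Deaf1 transgene and Mef2>Gsk3CA a constitutively active Gsk3 transgene. The reference of both was Mef2>+, the driver crossed to the w1118 strain without another transgene, so these comparisons share their 3 control libraries. Each transgene was a single line. Larval age and sex at RNA collection were not given in the sources used here. The study reported larger ventral longitudinal muscles with Deaf1 RNAi and smaller ones with Deaf1 or active Gsk3 overexpression. Because whole fillets were sequenced, a smaller share of muscle in the RNA and a lower level within muscle cannot be told apart.

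The libraries held 16186361 to 32756446 reads on genes. The targeted gene Deaf1 was at 22.9 ± 1.23 CPM (reads per gene relative to the library total, scaled for composition) in Mef2>Deaf1RNAi, against 41.8 ± 2.69 CPM in Mef2>whiteRNAi (SD, n = 3 each), a log2 fold change of −0.87. The gene w was at 13.3 ± 2.45 CPM in Mef2>whiteRNAi and 37.3 ± 2.79 CPM in Mef2>+ (log2 fold change −1.48). In Mef2>Deaf1 the Deaf1 gene was at 43.2 ± 3.92 CPM and in Mef2>+ at 34.8 ± 2.73 CPM, and this log2 fold change of 0.31 missed the threshold (adjusted p = 0.058). The Gsk3 gene sgg was not raised in Mef2>Gsk3CA (400.3 ± 109 CPM, against 369 ± 99.3 CPM in Mef2>+; log2 fold change 0.12, adjusted p = 0.779). The study reported higher Deaf1 and Gsk3 mRNA levels upon overexpression of each gene. Whether reads of the transgene count under sgg was not tested here, so the Mef2>Gsk3CA samples are called the libraries labelled Gsk3CA. The muscle identity of the samples was clear from 24 sarcomere genes, whose summed level was 27090 to 129125 CPM across the 15 libraries, and none of these genes was at 0 in all libraries of a genotype.

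The ATP synthase is represented by 3 members, of its catalytic head and its peripheral stalk. The gene blw (FBgn0011211, chromosome arm 2R) encodes the alpha subunit of the catalytic F1 head. Its level was 837, 845 and 805 CPM in Mef2>Deaf1RNAi, against 343, 384 and 459 CPM in Mef2>whiteRNAi. It was 409.5, 413 and 391 CPM in Mef2>Deaf1, 487, 434 and 502 CPM in the libraries labelled Gsk3CA, and 616, 563 and 799 CPM in Mef2>+. Every Deaf1RNAi library was therefore above all others, and every Mef2>+ library was above those of the 3 remaining genotypes. ATPsyn-beta (FBgn0010217, chromosome 4) is the beta subunit that carries the catalytic sites. It was at 1139, 1199 and 1212 CPM in Mef2>Deaf1RNAi, against 481, 594 and 738 CPM in Mef2>whiteRNAi. It was at 595, 609 and 552 CPM in Mef2>Deaf1, 669.5, 648 and 670.3 CPM in the libraries labelled Gsk3CA, and 929, 866 and 1159.7 CPM in Mef2>+. The third Mef2>+ library thus overlapped the range of Mef2>Deaf1RNAi for this gene. Oscp (FBgn0016691, arm 3R) encodes the peripheral stalk subunit that holds the F1 head in place. It was at 166, 173 and 164 CPM in Mef2>Deaf1RNAi, against 86.5, 95.6 and 112 CPM in Mef2>whiteRNAi. It was at 95.2, 106 and 89.6 CPM in Mef2>Deaf1, 93.0, 80.0 and 102 CPM in the libraries labelled Gsk3CA, and 145, 137 and 154 CPM in Mef2>+. Of the 5 genotypes, the libraries labelled Gsk3CA had the lowest mean for Oscp, whereas Mef2>whiteRNAi had the lowest for blw.

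The 4 members of cytochrome c oxidase are all small nuclear subunits around the mitochondrially encoded catalytic core. The gene cype (FBgn0015031, arm 2L), the homolog of mammalian COX6C, was at 163, 168 and 155 CPM in Mef2>Deaf1RNAi, against 82.7, 102 and 114 CPM in Mef2>whiteRNAi. It was at 79.4, 82.8 and 71.1 CPM in Mef2>Deaf1, 88.0, 72.9 and 101 CPM in the libraries labelled Gsk3CA, and 129, 125 and 139 CPM in Mef2>+. Its values in Mef2>whiteRNAi were spread the most widely among these 3 lower genotypes. The gene levy (FBgn0034877, arm 2R), the homolog of COX6A, was at 138, 141 and 131 CPM in Mef2>Deaf1RNAi, against 80.2, 86.1 and 97.5 CPM in Mef2>whiteRNAi. It was at 86.3, 88.7 and 71.5 CPM in Mef2>Deaf1, 74.3, 74.3 and 93.2 CPM in the libraries labelled Gsk3CA, and 123, 119.9 and 133 CPM in Mef2>+. The highest Mef2>+ library overlapped the Deaf1RNAi range. CoVa (FBgn0019624, arm 3R), the homolog of COX5A, was at 192, 194 and 199 CPM in Mef2>Deaf1RNAi, against 105, 119 and 130.4 CPM in Mef2>whiteRNAi. It was at 99.4, 111 and 89.8 CPM in Mef2>Deaf1, 112, 104 and 117 CPM in the libraries labelled Gsk3CA, and 159, 154 and 178 CPM in Mef2>+. CoVa kept the genotypes with high levels fully apart. CoVb (FBgn0031830, arm 2L), the homolog of COX5B, was at 108, 117 and 119.9 CPM in Mef2>Deaf1RNAi, against 61.6, 71.0 and 79.0 CPM in Mef2>whiteRNAi. It was at 65.3, 69.2 and 57.6 CPM in Mef2>Deaf1, 64.9, 62.8 and 69.5 CPM in the libraries labelled Gsk3CA, and 101, 98.6 and 109.8 CPM in Mef2>+. The lowest Deaf1RNAi library was below the highest Mef2>+ library.

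The members of complexes III and I had the lowest levels per transcript length. RFeSP (FBgn0021906, arm 2L) encodes the Rieske iron-sulfur protein, which passes electrons from ubiquinol toward cytochrome c1. It was at 113, 127 and 135 CPM in Mef2>Deaf1RNAi, against 68.6, 73.8 and 81.3 CPM in Mef2>whiteRNAi. It was at 78.2, 81.2 and 66.6 CPM in Mef2>Deaf1, 82.5, 77.5 and 83.8 CPM in the libraries labelled Gsk3CA, and 105, 104 and 124 CPM in Mef2>+. Again only the Deaf1RNAi and Mef2>+ libraries overlapped at the top. ND75 (FBgn0017566, chromosome X), the homolog of NDUFS1, is the largest complex I subunit and carries iron-sulfur clusters. It was at 170.3, 176 and 172 CPM in Mef2>Deaf1RNAi, against 95.6, 102 and 116 CPM in Mef2>whiteRNAi. It was at 109, 101 and 101 CPM in Mef2>Deaf1, 118, 104 and 117 CPM in the libraries labelled Gsk3CA, and 139, 138 and 169.8 CPM in Mef2>+. The third Mef2>+ library came close to the Deaf1RNAi range, well above the other Mef2>+ libraries. ND42 (FBgn0019957, arm 3R), the homolog of the accessory subunit NDUFA10, was at 93.4, 92.2 and 93.4 CPM in Mef2>Deaf1RNAi, against 59.7, 61.5 and 65.7 CPM in Mef2>whiteRNAi. It was at 66.6, 61.1 and 60.6 CPM in Mef2>Deaf1, 65.3, 59.7 and 67.3 CPM in the libraries labelled Gsk3CA, and 79.3, 74.7 and 88.7 CPM in Mef2>+. ND42 had the narrowest range of levels across the genotypes.

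**Figure D1:**
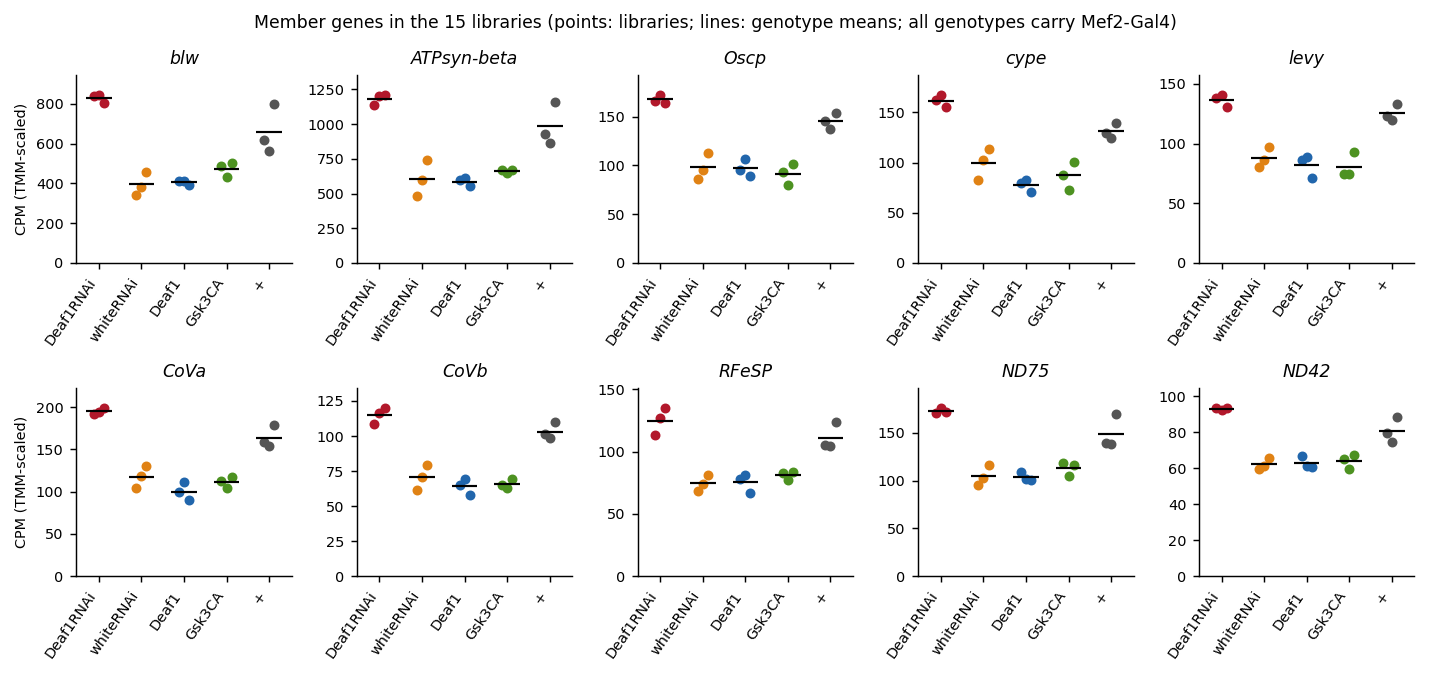
Level of each member in CPM (y axis, starting at 0) in the 15 libraries by genotype (x axis; every genotype carries Mef2-Gal4). Points are libraries and lines are means of 3. All 10 genes were highest on average in Mef2>Deaf1RNAi and second in Mef2>+, with the other 3 genotypes together below them.

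The mean order of the genotypes was thus shared. Mef2>Deaf1RNAi had the highest mean CPM for 10 of 10 members and Mef2>+ the second for 10 of 10. Averaged over the 10 genes, the log2 CPM was 7.71 ± 0.03 in Mef2>Deaf1RNAi and 6.94 ± 0.17 in Mef2>whiteRNAi (SD, n = 3 each). It was 6.86 ± 0.10 in the Mef2>Deaf1 libraries, 6.95 ± 0.11 in those labelled Gsk3CA and 7.48 ± 0.13 in the Mef2>+ libraries. Mef2>whiteRNAi was therefore not at the level of the other control but at that of both genotypes with a coding transgene. The lowest 3 means were close to each other for each gene and their order changed from gene to gene.

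Levels can be compared between genes only after division by transcript length. In TPM (a share of all transcripts, from exon lengths of the BDGP6 annotation), ATPsyn-beta was first of the 10 in all 5 genotypes, and CoVb, RFeSP, ND75 and ND42 filled the last 4 places in this order in all 5. In Mef2>Deaf1RNAi, ATPsyn-beta was at 718 ± 67.2 TPM, blw at 532 ± 23.4 TPM and cype at 448 ± 20.5 TPM (SD, n = 3), without overlap of neighbouring genes. In Mef2>+, ATPsyn-beta was at 607 ± 107 TPM, blw at 431 ± 89.3 TPM and cype at 369 ± 27.97 TPM, and the libraries of neighbouring genes overlapped. At the low end, ND75 was at 94.8 ± 6.37 TPM and ND42 at 83.1 ± 5.42 TPM in Mef2>Deaf1RNAi, which also overlapped. The only genotype in which cype (322 ± 38.3 TPM) stood above blw (297 ± 37.1 TPM) was Mef2>whiteRNAi, with overlapping libraries. The ATP synthase head subunits and cype were thus the most abundant of these transcripts, and those of complex I the least.

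Every member rose in Mef2>Deaf1RNAi relative to Mef2>whiteRNAi. There 10 of 10 were called higher (edgeR's quasi-likelihood test, Benjamini-Hochberg adjusted p under 0.05 over all 10930 genes tested), where 5.48% of all tested genes were called higher. Their median log2 fold change was 0.73, beside −0.052 over all genes tested. The ATP synthase head genes rose the most. The log2 fold change was 1.07 for blw (standard error 0.14, adjusted p = 0.0012), about 2.10-fold, and 0.97 for ATPsyn-beta (standard error 0.14, adjusted p = 0.0025). The smallest rises were those of ND42 (0.58, standard error 0.07, adjusted p = 0.0012) and levy (0.64, standard error 0.11, adjusted p = 0.0054). The remaining 6 genes were between 0.70 (cype, adjusted p = 0.0072, and CoVb) and 0.77 (Oscp). For all 10 the Deaf1RNAi libraries lay above every whiteRNAi library, which held for 14.9% of all tested genes. For each gene a two-sided exact permutation test over 3 against 3 libraries gave p = 0.1, the smallest value it allows.

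Every member fell in Mef2>Deaf1 relative to Mef2>+. In Mef2>Deaf1 10 of 10 were called lower, where 7.38% of all tested genes were called lower, and their median log2 fold change was −0.65, beside −0.017 over all genes. The genes of complex IV and of the ATP synthase fell by similar amounts. The log2 fold change was −0.75 for cype (standard error 0.13, adjusted p = 0.0032), −0.75 for ATPsyn-beta (standard error 0.14, adjusted p = 0.0059) and −0.71 for CoVa (standard error 0.10, adjusted p = 0.0011). It was −0.71 for blw, −0.69 for CoVb, −0.61 for levy, −0.58 for Oscp and −0.56 for RFeSP. The complex I genes fell the least, ND75 by 0.52 and ND42 by 0.37 on the log2 scale (adjusted p = 0.0074 for ND42). With no composition scaling ND42 missed the threshold (adjusted p = 0.111). Apart from leaving out single libraries, ND42 kept its call in 6 of 9 other settings, and the exchanged control was among those that lost it. In CPM all 10 had Deaf1 libraries below every Mef2>+ library, as did 17.4% of all tested genes, and the exact permutation p was again 0.1. In TPM those of ND42 overlapped.

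The libraries labelled Gsk3CA, set against the same Mef2>+ libraries, were also lower in CPM for all members. All 10 were called lower, where 8.87% of all tested genes were called lower, and the median log2 fold change was −0.57, beside −0.036 over all genes. The peripheral stalk gene Oscp changed the most (−0.67, standard error 0.11, adjusted p = 0.0040), followed by CoVb (−0.65, standard error 0.10, adjusted p = 0.0024) and levy (−0.64, standard error 0.11, adjusted p = 0.0051). The head genes changed less, ATPsyn-beta by −0.57 (adjusted p = 0.024) and blw by −0.47 (adjusted p = 0.037). ND42 had the smallest change (−0.34, adjusted p = 0.015). In CPM none of the 10 had overlapping libraries, and 19.8% of all tested genes were likewise fully lower. In TPM the libraries labelled Gsk3CA overlapped those of Mef2>+ for blw, ATPsyn-beta, RFeSP, ND75 and ND42. ND42 averaged 73.8 TPM in the libraries labelled Gsk3CA and 73.5 TPM in Mef2>+. The edgeR calls rested on few libraries: 4, 4 and 5 members stayed called without Gsk3CA replicates 1, 2 and 3, 8 without Mef2>+ replicate 1, 10 without Mef2>+ replicate 2 and 9 without Mef2>+ replicate 3. Oscp, levy, CoVa and CoVb were called in all 6 of these fits. With only the 6 libraries compared in the model, 1 member was called, CoVb, and with no composition scaling 3 were.

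The controls also differed from each other in these genes. In Mef2>whiteRNAi 9 of 10 members were called lower than in Mef2>+, where 10.2% of all tested genes were called lower, and the median log2 fold change was −0.53, beside −0.018 over all genes. The head genes differed the most, blw by −0.74 (standard error 0.13, adjusted p = 0.0045) and ATPsyn-beta by −0.70 (standard error 0.14, adjusted p = 0.0074). The member not called was cype, with −0.40 (standard error 0.13, adjusted p = 0.053). It was called without whiteRNAi replicate 3 (adjusted p = 0.029), with RLE size factors (0.041), with at least 10 counts in every library (0.037) and by DESeq2 (0.012), and levy missed the threshold without whiteRNAi replicate 1 (adjusted p = 0.057). In CPM the whiteRNAi libraries were below every Mef2>+ library for all 10, as for 18.5% of all tested genes. In TPM those of cype and ND42 overlapped. With only the 6 libraries compared in the model 3 members were called, and with no composition scaling 7 were.

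**Figure D2:**
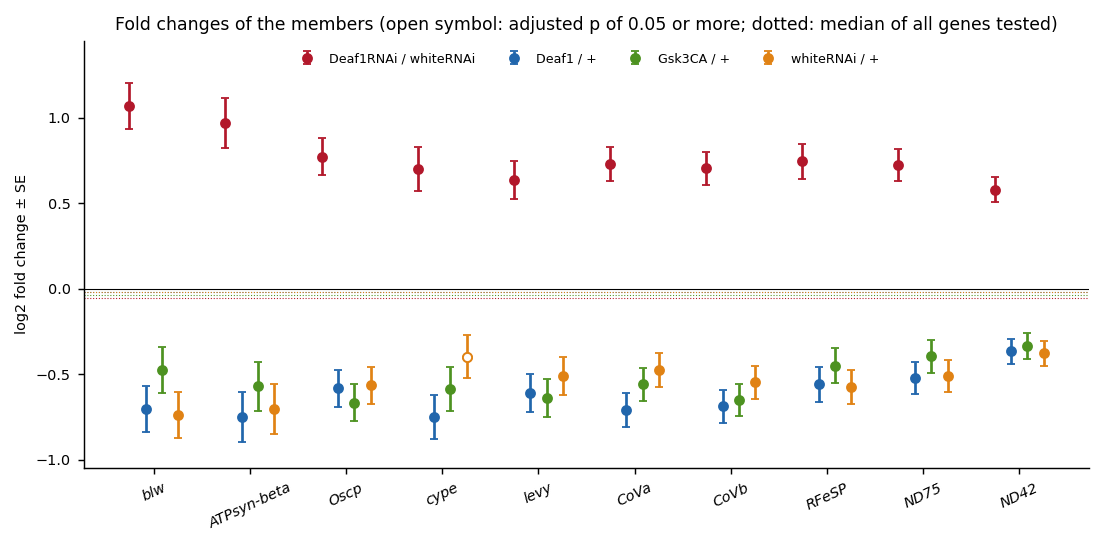
Log2 fold change of each member with its standard error (y axis) in the 4 comparisons (colors, 3 against 3 libraries each). Filled symbols have an adjusted p under 0.05 and the open symbol (cype, whiteRNAi against Mef2>+) does not. All values are positive for Deaf1RNAi against whiteRNAi and negative in the others, and the dotted medians of all genes lie near 0.

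With the controls exchanged no member passed edgeR's test. Mef2>Deaf1RNAi against Mef2>+ gave positive values for all 10, from 0.12 (levy) to 0.33 (blw) with a median of 0.21 on the log2 scale, but 0 of 10 were called (adjusted p from 0.118 to 0.494), where 8.32% of all tested genes were called. At an unadjusted p under 0.05 there were 5 (blw, cype, CoVa, ND75 and ND42; 25.8% of all tested genes), and the Deaf1RNAi libraries were above every Mef2>+ library for 6 (16.7% of all tested genes). DESeq2 called 2, CoVa (log2 fold change 0.27, adjusted p = 0.044) and ND42 (0.22, adjusted p = 0.022). The 95% interval was 0.04 to 0.62 for blw and −0.12 to 0.36 for levy. Mef2>Deaf1 against Mef2>whiteRNAi had a median of −0.032 with 0 of 10 called, where 6.56% of all tested genes were called. The values ran from −0.36 for cype (95% interval −0.63 to −0.08) to 0.033 for blw (−0.26 to 0.32), and cype and CoVa had an unadjusted p under 0.05 (20.2% of all tested genes). DESeq2 called 1, cype (adjusted p = 0.041). The libraries labelled Gsk3CA against Mef2>whiteRNAi had a median of −0.022 with 0 of 10 called, where 32% of all tested genes were called. Here blw was at 0.26 (95% interval −0.03 to 0.55) and cype at −0.19 (−0.47 to 0.09), and 0 members had an unadjusted p under 0.05 (42.4% of all tested genes), while DESeq2 called blw (0.35, adjusted p = 0.023). The intervals of cype hold values of the size of the smaller changes above, but not every member's did. For ND42 the interval was −0.15 to 0.17 for Mef2>Deaf1 and −0.12 to 0.20 for the libraries labelled Gsk3CA, each against Mef2>whiteRNAi. Its changes against Mef2>+ were −0.37 and −0.34. The genotypes with a coding transgene set directly against each other, Mef2>Deaf1 against the libraries labelled Gsk3CA, gave a median of −0.12 with 0 of 10 called, where 30.2% of all tested genes were called. The largest difference was that of blw (−0.23, 95% interval −0.52 to 0.06). For blw and ATPsyn-beta the Deaf1 libraries lay below every library labelled Gsk3CA (22.8% of all tested genes). At an unadjusted p under 0.05 there were 0 members (42.3% of all tested genes), and DESeq2 called 2, blw (adjusted p = 0.044) and CoVa (adjusted p = 0.042). In all 4 of these comparisons limma voom called 0.

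**Figure D3:**
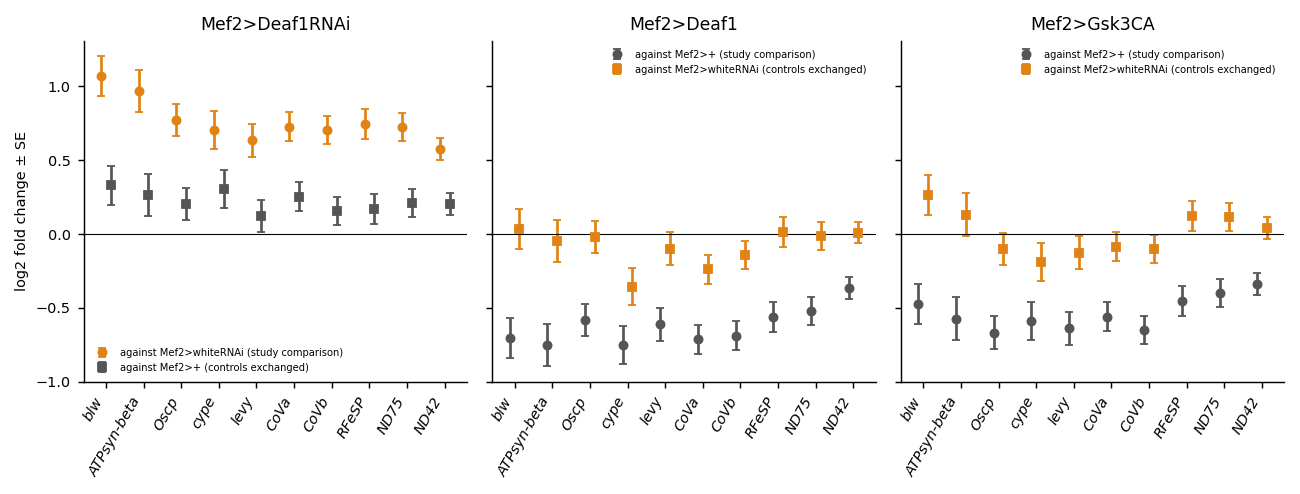
Log2 fold change of each member with its standard error (y axis) for Mef2>Deaf1RNAi, Mef2>Deaf1 and Mef2>Gsk3CA (panels), each against the study's control (circles) and against the other control (squares). Orange is whiteRNAi and grey is Mef2>+. By edgeR's test the circles are all called and the squares are not.

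The members also differed among themselves within a library. The mean log2 CPM of the ATP synthase genes minus that of the complex I genes was 2.11 ± 0.02 in Mef2>Deaf1RNAi and 1.82 ± 0.13 in Mef2>whiteRNAi. It was 1.82 ± 0.10 in the Mef2>Deaf1 libraries, 1.85 ± 0.02 in those labelled Gsk3CA and 2.05 ± 0.05 in the Mef2>+ libraries (SD, n = 3 each). So the ATP synthase genes changed by more than the complex I genes, by 0.30 on the log2 scale in Mef2>Deaf1RNAi against Mef2>whiteRNAi, −0.23 in Mef2>Deaf1 against Mef2>+, −0.20 in the libraries labelled Gsk3CA against Mef2>+ and −0.23 in Mef2>whiteRNAi against Mef2>+. The libraries did not overlap in any of these 4. The complex IV genes minus the complex I genes were at 0.24 ± 0.02 in Mef2>Deaf1RNAi and 0.19 ± 0.08 in Mef2>whiteRNAi, which overlapped, and Mef2>whiteRNAi also overlapped Mef2>+ (0.24 ± 0.06). This difference was lower in both genotypes with a coding transgene, −0.015 ± 0.14 in Mef2>Deaf1 and −0.013 ± 0.08 in the libraries labelled Gsk3CA, than in Mef2>+, without overlap, by 0.25 each. The ATP synthase genes minus the complex IV genes differed by 0.25 in Mef2>Deaf1RNAi against Mef2>whiteRNAi and −0.18 in Mef2>whiteRNAi against Mef2>+, without overlap. They differed by 0.021 in Mef2>Deaf1 (exact permutation p = 0.8) and 0.048 in the libraries labelled Gsk3CA (exact permutation p = 0.6) against Mef2>+, with overlap. Each difference without overlap had an exact permutation p = 0.1, and 0.15 after Benjamini-Hochberg adjustment over the 12 such comparisons, so none passed a threshold of 0.05, which 3 against 3 libraries cannot reach.

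The rest of the pathway moved with the members. Of 59 other nuclear genes of complexes I to V and cytochrome c, 58 were tested. In Mef2>Deaf1RNAi 54 of the 58 were called higher than in Mef2>whiteRNAi and 0 lower, with a median log2 fold change of 0.56. By complex these were 28 of 31 of complex I, 4 of 4 of complex II (succinate dehydrogenase), 7 of 8 of complex III with cytochrome c, 5 of 5 of complex IV and 10 of 10 of the ATP synthase. The median was 0.44 for the other complex I genes and 0.75 for the other ATP synthase genes. CG4769, which encodes cytochrome c1, rose by 1.14 (129 ± 13.4 CPM in Mef2>Deaf1RNAi, against 58.8 ± 11.99 CPM in Mef2>whiteRNAi). The gene sun, the epsilon subunit of the ATP synthase, rose by 1.02 (101 ± 5.10 CPM in Mef2>Deaf1RNAi, against 49.8 ± 8.41 CPM in Mef2>whiteRNAi). The count of 54 was 35 without whiteRNAi replicate 1 and 33 without Deaf1RNAi replicate 2, and 33 with no composition scaling.

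In Mef2>Deaf1, 52 of the 58 were called lower than in Mef2>+ and 0 higher, with a median of −0.51. These were 25 of 31 of complex I, and all 4, 8, 5 and 10 tested of complexes II, III with cytochrome c, IV and V. With no composition scaling the count of 52 was 34, and without Deaf1 replicate 3 it was 36. CG9603, annotated as COX7A of complex IV, fell by 1.05 on the log2 scale (94.3 ± 5.70 CPM in Mef2>Deaf1 and 195 ± 12.4 CPM in Mef2>+). Cyt-c-p, the cytochrome c of somatic cells, fell by 1.01 (21.7 ± 1.54 CPM in Mef2>Deaf1 and 43.6 ± 9.28 CPM in Mef2>+). In the libraries labelled Gsk3CA 54 of 58 were called lower than in Mef2>+ and 0 higher, with a median of −0.45. CG9603 fell by 0.93 and sun by 0.87 on the log2 scale. The count of 54 was 35 without Mef2>+ replicate 1, and 25, 20 and 34 without Gsk3CA replicates 1, 2 and 3. With size factors from medians of ratios (RLE) in place of the main scaling it was 39, and with no composition scaling 11. In Mef2>whiteRNAi 49 of 58 were called lower than in Mef2>+ and 0 higher, with a median of −0.41. CG1746, annotated as the proton-carrying subunit c of the ATP synthase, was at 429 ± 83.3 CPM in Mef2>whiteRNAi and 801 ± 125 CPM in Mef2>+ (log2 fold change −0.90). Cyt-c-p differed by −0.89. The count of 49 was 29 without Mef2>+ replicate 3, 26 and 30 without whiteRNAi replicates 1 and 2, and 22 with no composition scaling.

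The 10 members were also compared with these other genes within each library. Their mean log2 CPM stood above that of the 58 by 1.41 ± 0.0050 in Mef2>Deaf1RNAi and 1.22 ± 0.027 in Mef2>whiteRNAi, by 1.21 ± 0.012 in the Mef2>Deaf1 libraries, 1.26 ± 0.018 in those labelled Gsk3CA and 1.31 ± 0.045 in the Mef2>+ libraries. The difference of these was 0.19 for Deaf1RNAi against whiteRNAi and −0.10 for Deaf1 against Mef2>+ (exact permutation p = 0.1 each, the smallest possible). It was −0.045 for the libraries labelled Gsk3CA against Mef2>+ (exact permutation p = 0.2) and −0.087 for whiteRNAi against Mef2>+ (exact permutation p = 0.1).

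**Figure D4:**
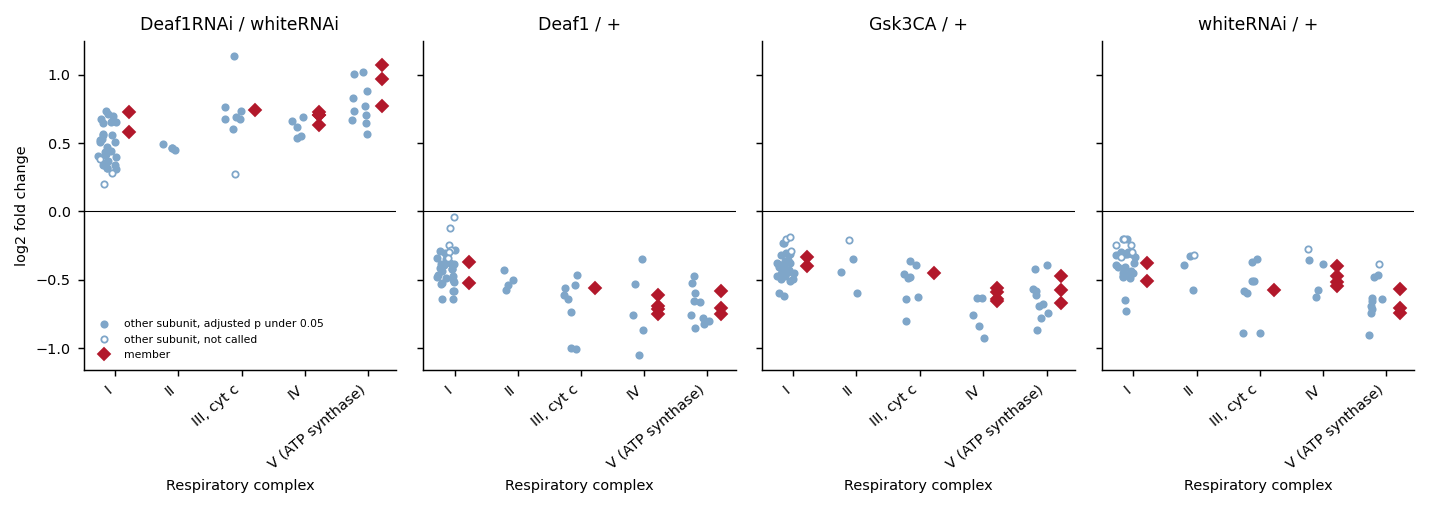
Log2 fold change (y axis) of every tested nuclear respiratory gene by complex (x axis) in the 4 comparisons (panels). Diamonds are the 10 members, filled circles other subunits with an adjusted p under 0.05 and open circles other subunits not called. All points lie above 0 for Deaf1RNAi against whiteRNAi and below 0 in the other panels, and the other complex I genes have medians nearer to 0 than the other ATP synthase genes in all 4.

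The 13 protein genes of mitochondrial DNA are listed in the count files, but 0 of them had a read in any library, so the partner subunits made in mitochondria were not measured here. Across the 15 libraries the log2 CPM of the 45 pairs of members had Pearson correlations of 0.907 (lowest) to 0.992 (blw with ND75), with a median of 0.959. The genes outside the 10 whose pattern was most like the members' mean were CG6020 and CG3683 (r of 0.988 each), annotated as ND-39 and ND-19 of complex I, and sun (0.987), CG4692 (0.986, annotated as ATPsynF) and ATPsyn-gamma (0.986) of the ATP synthase. The median over 8007 other genes was 0.013. All 15 libraries share the 5 genotypes and their composition, so these values are a description.

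Genes of muscle structure and of the citric acid cycle had medians of the same sign as the members in all 4 comparisons. In Mef2>Deaf1RNAi 14 of 23 tested sarcomere genes were called higher than in Mef2>whiteRNAi and 1 lower, with a median log2 fold change of 1.07. The count of 14 was 3 to 4 without any 1 library other than whiteRNAi replicate 3, 19 without that one, and 8 with no composition scaling. The summed sarcomere level was 88772 to 95575 CPM in Mef2>Deaf1RNAi and 27090 to 63270 CPM in Mef2>whiteRNAi. In Mef2>Deaf1 18 of 23 were called lower than in Mef2>+ (median −1.33), with sums of 33440 to 44222 CPM in Mef2>Deaf1 and 90247 to 129125 CPM in Mef2>+. In Mef2>whiteRNAi 18 of 23 were called lower than in Mef2>+ (median −1.12), and 10, 8 and 10 were without whiteRNAi replicates 1 and 2 and Mef2>+ replicate 3. In the libraries labelled Gsk3CA, with sums of 60778 to 79282 CPM, 0 of 23 were called (median −0.55, 21 of 23 negative), 4 had an unadjusted p under 0.05, and DESeq2 and limma voom called 0. These libraries lay below every Mef2>+ library for 14 of the 23 and above for 1, where 19.8% of all tested genes were fully lower. The mean log2 CPM of the members minus that of the sarcomere genes differed by −0.37 in Mef2>Deaf1RNAi against Mef2>whiteRNAi (exact permutation p = 0.3). Against Mef2>+ it differed by 0.84 in Mef2>Deaf1 and 0.61 in Mef2>whiteRNAi (exact permutation p = 0.1 each, the smallest possible), and by −0.10 in the libraries labelled Gsk3CA (exact permutation p = 0.6). Of 12 citric acid cycle genes, which feed electrons to the chain, 10 were called higher in Mef2>Deaf1RNAi than in Mef2>whiteRNAi (median 0.79). In Mef2>Deaf1 9 were called lower than in Mef2>+ (median −0.69), in the libraries labelled Gsk3CA 3 (median −0.31), and in Mef2>whiteRNAi 9 (median −0.57). The count of 3 was 0 without Gsk3CA replicates 1 or 2 and 1 without replicate 3 or with no composition scaling, and the last count of 9 was 5 with no composition scaling. The part of muscle content in the members' levels was not tested.

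**Figure D5:**
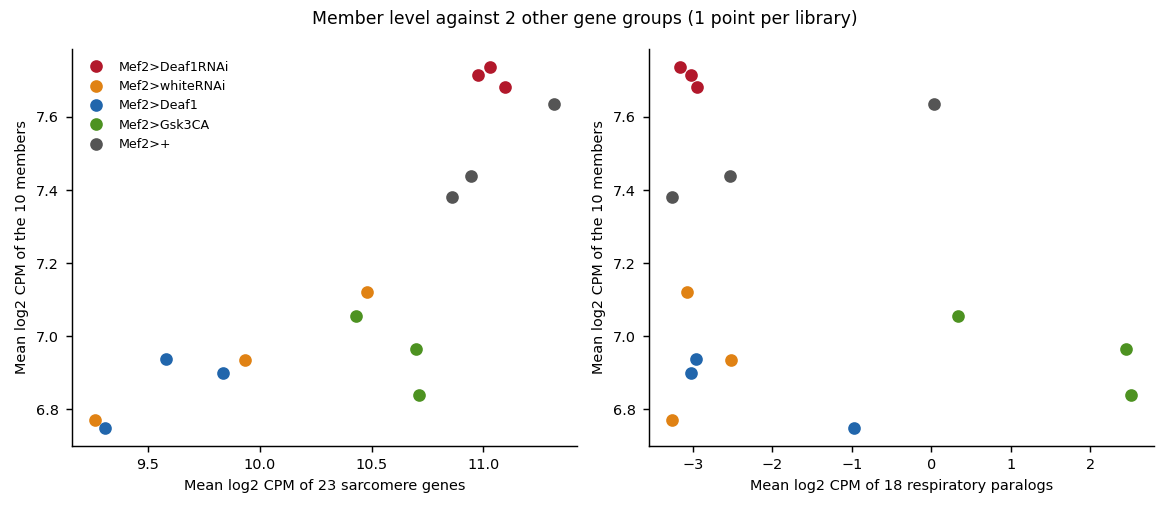
Mean log2 CPM of the 10 members (y axis) against that of 23 sarcomere genes (left) and 18 respiratory paralogs (right), 1 point per library, colored by genotype. Gsk3CA libraries have low member levels beside sarcomere levels of 10.4 to 10.7, which are below the 10.9 to 11.3 of Mef2>+. Their paralog levels (0.33 to 2.52) are above those of all other libraries, of which Mef2>+ replicate 3 is the highest (0.035).

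Genes of other tissues also differed between the genotypes. In Mef2>Deaf1RNAi against Mef2>whiteRNAi 364 of all 10930 tested genes were called lower. All 12 tested midgut genes had negative fold changes there, 3 of them called. Their sum was 8.503 to 10.3 CPM in Mef2>Deaf1RNAi and 41.1 to 358 CPM in Mef2>whiteRNAi. All 8 tested fat body genes were negative too, 1 called, with sums of 2923 to 5148 CPM in Mef2>Deaf1RNAi and 7498 to 11050 CPM in Mef2>whiteRNAi. Fat body sums were 3557 to 7009 CPM in Mef2>Deaf1, 1030 to 6528 CPM in the libraries labelled Gsk3CA and 2652 to 7279 CPM in Mef2>+. Midgut sums were 8.30 to 99.7 CPM in Mef2>Deaf1, 5.97 to 11.002 CPM in the libraries labelled Gsk3CA and 99.1 to 358 CPM in Mef2>+. Salivary glue genes summed to 10.3, 668 and 1457 CPM in the Deaf1RNAi libraries, against 20.8 to 82.9 CPM in Mef2>whiteRNAi. All 7 were positive in this comparison (median log2 fold change 3.93), with 1 called higher. Of 6 hemocyte genes, markers of blood cells, 2 were called higher in Mef2>Deaf1RNAi than in Mef2>whiteRNAi, and 2 higher in Mef2>Deaf1 than in Mef2>+ (nimC1, log2 fold change 3.41, and Pxn, 0.49). In the libraries labelled Gsk3CA 1 was called higher and 1 lower than in Mef2>+, and in Mef2>whiteRNAi 3 higher and 2 lower. Of all 10930 tested genes, 599 were called higher in Mef2>Deaf1RNAi and 553 in Mef2>Deaf1 in these comparisons. Called higher and lower were 567 and 969 in the libraries labelled Gsk3CA and 689 and 1110 in Mef2>whiteRNAi. The sum of the hemocyte genes was 1380.3 to 1600.1 CPM in Mef2>Deaf1RNAi, against 996 to 1538 CPM in Mef2>whiteRNAi. It was 1313 to 1757 CPM in Mef2>Deaf1 and 872 to 937 CPM in the libraries labelled Gsk3CA, against 960.1 to 1447 CPM in Mef2>+. Epidermis genes, which belong to the fillet, summed to 78411 to 123567 CPM in Mef2>Deaf1RNAi, against 45740 to 98671 CPM in Mef2>whiteRNAi. They summed to 85043 to 113025 CPM in Mef2>Deaf1 and 42734 to 61949 CPM in the libraries labelled Gsk3CA, against 117659 to 133796 CPM in Mef2>+. The part of these tissues in the members' levels was not tested.

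Many respiratory genes of Drosophila have duplicates that are expressed mainly in the testis, and some of these were called higher in 1 genotype. Of 19 such paralogs 18 were tested, and in the libraries labelled Gsk3CA all 18 had positive fold changes against Mef2>+ (median 3.48). There 3 were called higher, as were 567 of all 10930 tested genes. Most of the 18 were near 0 in the other genotypes and passed the filter on low counts mainly through the libraries labelled Gsk3CA. For example, CG17300 averaged 2.98 CPM there and 0 to 0.11 CPM in the other genotypes. The shared sign is therefore a description and no independent support. In the other 3 comparisons 0 paralogs were called by edgeR; at an unadjusted p under 0.05 there were 7 in Mef2>whiteRNAi against Mef2>+, where DESeq2 called 1 lower, and 0 in the others. CG5389, the paralog of ATPsyn-beta annotated as ATPsynbetaL, was at 8.89, 9.10 and 1.46 CPM in the libraries labelled Gsk3CA and 0.0512, 0 and 0.720 CPM in Mef2>+ (log2 fold change 4.61, standard error 1.41, adjusted p = 0.048). CG11423, annotated as ND-51L1 of complex I, was at 7.63, 7.55 and 1.22 CPM in the libraries labelled Gsk3CA and 0.0512, 0 and 0.664 CPM in Mef2>+ (log2 fold change 4.47, adjusted p = 0.039). CG10396, annotated as COX4L of complex IV, was also called, with 13.01, 13.7 and 3.996 CPM in the libraries labelled Gsk3CA, against 0.102, 0.202 and 1.72 CPM in Mef2>+ (log2 fold change 3.91). For all 3 the third Gsk3CA library was the lowest of its genotype and the third Mef2>+ library the highest. The paralog of CoVb, CG11043, was at 6.55, 5.97 and 1.18 CPM in the libraries labelled Gsk3CA and 0.205, 0 and 1.495 CPM in Mef2>+, which overlap. The count of 3 was 0 without Gsk3CA replicates 1 or 2 or Mef2>+ replicates 1 or 2, 9 without Gsk3CA replicate 3 and 16 without Mef2>+ replicate 3, and DESeq2 called 6. Of 17 testis genes 13 were tested, and in the libraries labelled Gsk3CA all 13 were positive against Mef2>+ (median 3.33). There 3 were called higher, beside the 567 of all 10930 tested genes. Some of the 13 were near 0 in Mef2>+ (sa averaged 0.17 CPM and can 0.34 CPM). Such genes could pass the filter mainly through the libraries labelled Gsk3CA, so their sign is no independent support. The 17 testis genes summed to 289, 313 and 81.9 CPM in the libraries labelled Gsk3CA and 35.4, 34.4 and 78.2 CPM in Mef2>+. None of the 17 was at 0 in any library labelled Gsk3CA. The part of testis RNA in the members' lower level was not tested. The paralogs summed to 26.99 to 132 CPM in the libraries labelled Gsk3CA, where the members summed to 1718 to 1922 CPM, against 0.877 to 21.4 CPM in Mef2>+, where the members summed to 2380 to 3055 CPM.

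In the BDGP6 annotation 5 members share exon bases with a gene on the opposite strand, and the strand setting of the counting was not given in the sources used here. ATPsyn-beta shares 191 bases with CG11076, which was at 15.2 to 21.98 CPM over the libraries, and RFeSP 148 bases with CG14352. CoVa shares 44 bases with glo, levy 16 with pita and Oscp 7 with CG14864. The gene glo was at 187 to 196 CPM in Mef2>Deaf1RNAi and 192 to 229 CPM in Mef2>whiteRNAi, whose ranges overlap, while those of CoVa did not. The 5 members without such an overlap (blw, cype, CoVb, ND75 and ND42) were all called higher in Mef2>Deaf1RNAi than in Mef2>whiteRNAi, and lower in Mef2>Deaf1 and the libraries labelled Gsk3CA than in Mef2>+. The part of reads from the opposite strand in the members' counts was not tested.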

How the data were processed

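The authors extracted RNA from filleted larvae, prepared stranded mRNA libraries, mapped paired reads of 100 bases to BDGP5 with STAR (version 2.5.3a) and deposited unnormalized counts per gene symbol made with HTSeq (version 0.6.1p1, GTF release 75). Here 5 HTSeq summary lines per library were left out (3.36 to 6.75% of reads on no feature, 1.74 to 3.07% ambiguous), and 15369 of 15682 symbols matched BDGP6 identifiers. The members and gene lists were chosen with earlier results of these data known. Genes were tested with edgeR 4.0.16 in R 4.3.3: TMM scaling, filterByExpr (10930 genes), 1 model of 15 libraries with 10 residual degrees of freedom, the quasi-likelihood test, and Benjamini-Hochberg adjustment with a threshold of 0.05. Log2 CPM used a prior count of 2. Of the other pathway genes, those with the 2 largest positive and 2 largest negative changes among the called were named, and the 5 genes most correlated with the members' mean among those with an average log2 CPM of at least 1. CG11043, CG10396, CG17300, sa, can, nimC1 and Pxn were named after their values were seen. The exchanged controls and midgut, fat body, hemocyte, epidermis and glue sums are given as context. The code was tested on simulated data with 200 changed genes. Same-numbered libraries of Mef2>Deaf1 and Mef2>+ deviated together (correlations of 0.24 to 0.48), while those of Mef2>Gsk3CA and Mef2>+ deviated oppositely (−0.78 to −0.56). Mef2>Deaf1 replicate 1 correlated more with Mef2>+ replicate 2 (0.46) than with replicate 1 (0.30). The labels give no shared batch. Alternatives were other scalings, filters and tools (DESeq2 1.42.0, limma 3.58.1), a replicate block, only the compared libraries, each library left out and, chosen after seeing the data, no scaling factor and Mef2>Deaf1 against Mef2>Gsk3CA. Intervals on fold changes cover the spread between libraries only.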

Additional observations from a re-analysis of the deposited data

How the results depend on the processing

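In mean TPM, which was not a setting of the fits, ND42 was not lower in the libraries labelled Gsk3CA (73.8) than in Mef2>+ (73.5). The members' fitted log2 fold changes kept their direction in every comparison and setting except with the controls exchanged. There edgeR called 0 members in Deaf1RNAi, Deaf1 and the libraries labelled Gsk3CA, DESeq2 called 2, 1 and 1, the medians were 0.21, −0.032 and −0.022, and edgeR's the genes called in all were 717 for Deaf1 and 3502 for Gsk3CA. The sign turned for blw (0.033), RFeSP (0.015) and ND42 (0.011) in Deaf1 against whiteRNAi, and for blw (0.26), ATPsyn-beta (0.13), RFeSP (0.12), ND75 (0.11) and ND42 (0.041) in Gsk3CA against whiteRNAi. The cause was not tested.

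With library totals and no scaling factor, chosen after seeing the data, the median of all genes shifted by −0.20 for Deaf1RNAi, 0.17 for Deaf1, 0.25 for Gsk3CA and 0.16 for whiteRNAi against Mef2>+, and the members' medians were 0.53, −0.48, −0.32 and −0.37. It called 10 members for Deaf1RNAi, 9 for Deaf1, 3 for Gsk3CA and 7 for whiteRNAi against Mef2>+, and 1865 genes for Deaf1RNAi and 2311 for Deaf1. Genes called higher and lower were 274 and 1591 for Deaf1RNAi (599 and 364 with TMM), 1814 and 497 for Deaf1 (553 and 807), 1981 and 260 for Gsk3CA (567 and 969), and 2043 and 555 for whiteRNAi against Mef2>+ (689 and 1110). With RLE factors Gsk3CA had 759 higher and 543 lower, and 7 members called. DESeq2 called 1661 genes for Deaf1RNAi and 1232 higher and 818 lower for Gsk3CA. With at least 10 counts in every library Gsk3CA had 1003 genes and 5 members called. With only the 6 libraries compared it had 85 genes and 1 member, and whiteRNAi against Mef2>+ had 665 genes and 3 members, with fewer libraries behind the spread.

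With the replicate block 599 genes were called for Deaf1RNAi, 1017 for Deaf1, 966 for Gsk3CA and 1322 for whiteRNAi against Mef2>+, and 10, 10, 9 and 9 members; blw missed the threshold in Gsk3CA (adjusted p = 0.0502) and the block changed no other member's call. Same-numbered libraries had mean correlations of −0.10, 0.34, −0.66 and 0.12 in these comparisons, and in none did every library correlate best with its own number.

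On leaving out 1 library at a time the genes called were 294 to 1159 for Deaf1RNAi, 711 to 958 for Deaf1, 445 to 2837 for Gsk3CA and 818 to 2062 for whiteRNAi against Mef2>+. The members called were 10 in every fit for Deaf1RNAi and Deaf1, 4 to 10 for Gsk3CA and 8 to 10 for whiteRNAi against Mef2>+. Their medians were 0.65 to 0.80, −0.69 to −0.55, −0.64 to −0.47 and −0.61 to −0.45. A two-sided exact permutation test of 3 against 3 libraries cannot pass 0.05.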
